A study of Mus musculus with 12 samples.

Results

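The genes described here are the mouse zinc finger genes named Zfp plus a number. Of 380 such names, 208 had a mean of at least 5 TPM over the 12 libraries and are called members below, out of 55678 gene names in the table and 16423 genes tested. TPM is a transcript abundance corrected for transcript length and scaled to the same total in each library, so that levels of different genes can be set side by side. The members were thus chosen by their mean TPM over all libraries. The strain and restraint differences below were not used by that rule, but 10 members reached 5 TPM on average in only 1 of the 2 strains (8 in B6, 2 in BALB/c), and for these the level and the strain difference are not independent. Just inside the threshold stood Zfp583 at 5.14, Zfp14 at 5.11 and Zfp319 at 5.00 TPM. Just outside stood Zfp112 at 4.99, Zfp395 at 4.98 and Zfp831 at 4.92 TPM.

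RNA was measured by sequencing in punches of the medial prefrontal cortex of 12 mice, in 4 groups of 3. The strains were C57BL/6JmsSlc (B6 below) and BALB/cCrSlc (BALB/c below), both inbred. Mice of each strain, 9 to 10 weeks old, were either handled as controls or restrained for 6 h on each of 21 days (chronic restraint stress, CRS). The labels name no transgene or deletion, and tissue was punched (1.5 mm) after behavioural tests. Sex is not named in the labels, and whether the 3 libraries of a group came from separate cages or litters is not stated, so p-values measure the spread between these libraries. A punch holds a mixture of cell types, and fewer cells of a type and less RNA per cell cannot be told apart.

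The proteins of this family carry repeated zinc fingers of the Cys2-His2 kind, in which cysteines and histidines hold a zinc ion and the short helix of each finger contacts a few bases of DNA, or, in some members, RNA. Many also have a KRAB box, a short stretch at the start of the protein that binds Trim28. Trim28 then recruits the histone methyltransferase Setdb1, heterochromatin proteins and deacetylases, and the bound DNA, often a retroelement, is kept silent. KRAB zinc finger genes stand in clusters that grew by duplication, and neighbours and copies differ between mouse strains. The coding sequences of GENCODE M21 (build GRCm38) were searched for the finger pattern and for a KRAB box pattern. The KRAB box pattern was found in 94 of 206 members with a coding sequence and not in the other 112. A box that departs from the pattern would be missed. Below, members without a KRAB box are those in which the pattern was not found. The median number of fingers was 11 in the KRAB members and 8 in the others, with the highest number, 36, in Zfp142. No finger of the searched pattern was found in 5 members, Zfp365, Zfp330, Zfp703, Zfp839 and Zfp935. A SCAN domain pattern, which marks a dimerization domain, was found in 6 members.

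The 250 bases before the RefSeq start site (build GRCm38.p6) are shown for the 3 members called between the strains in controls under each processing alternative tried, because these are the start regions of the transcripts whose levels separated the strains. Capitals mark each CCAAT, or its reverse complement ATTGG, which is a common promoter element near start sites.
Zfp940: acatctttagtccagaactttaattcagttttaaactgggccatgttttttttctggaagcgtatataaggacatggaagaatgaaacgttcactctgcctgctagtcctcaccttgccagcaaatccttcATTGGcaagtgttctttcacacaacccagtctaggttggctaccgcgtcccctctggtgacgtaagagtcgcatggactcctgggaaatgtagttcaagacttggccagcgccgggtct
Zfp970: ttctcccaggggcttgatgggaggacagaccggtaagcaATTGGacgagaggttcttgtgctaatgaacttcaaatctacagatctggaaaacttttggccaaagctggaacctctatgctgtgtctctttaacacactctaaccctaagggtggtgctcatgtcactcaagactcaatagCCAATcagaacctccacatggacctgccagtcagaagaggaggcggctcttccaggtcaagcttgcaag
Zfp983: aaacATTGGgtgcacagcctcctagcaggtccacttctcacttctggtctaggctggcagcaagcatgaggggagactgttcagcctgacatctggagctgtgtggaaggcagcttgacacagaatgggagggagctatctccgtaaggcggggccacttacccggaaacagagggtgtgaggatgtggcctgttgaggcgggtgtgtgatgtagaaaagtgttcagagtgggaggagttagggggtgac
The window of Zfp940 was chr7:29853649-29853898 on the minus strand, that of Zfp970 chr2:177464492-177464741 on the plus strand and that of Zfp983 chr17:21650361-21650610 on the plus strand. The element occurred 1 time before Zfp940, 2 times before Zfp970 and 1 time before Zfp983. None of the 3 windows held a GC box (GGGCGG) on either strand. The TATA box, searched as TATAAA, was also absent from the 3 windows on either strand. The same held for the cyclic AMP response element (TGACGTCA) and for a consensus glucocorticoid response element. The reference sequence belongs to the C57BL/6J strain, so it shows none of the bases at which BALB/c differs.

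RefSeq start regions were found for 172 of the 208 members, with 213 start sites in all. CCAAT stood in 44.1% of these member windows and in 33.8% of all 32851 windows of the same length. The GC box stood in 45.5% of member windows and 32.7% of all, the TATA box in 7.51% and 12.4%, and the cyclic AMP response element in 2.82% and 1.55%. The glucocorticoid response element stood in 0 of 213 member windows and 0.00913% of all. Member windows held a median of 13 CG dinucleotides against 6 over all windows. All windows include genes of any level, while the members were chosen by their level. Windows of expressed genes alone were not compared, so these shares are not shown to be particular to the family. These are counts of letters and not of bound sites.

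Most members were expressed at low levels. The median of the member means was 10.8 TPM, the quartiles were 7 and 17.2 TPM, 93 were under 10 TPM and 40 were at 20 TPM or more. A total of 164 members stayed at 5 TPM or more in each library. The sum over all members was between 2833 and 3656 TPM per library.

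Of the 8 most abundant members, the KRAB pattern was found in Zfp445 alone. Zfp365, whose product binds the scaffold protein Disc1 and acts in neurite growth, was highest with a mean of 226 TPM. Its libraries read 208, 201 and 273 TPM in B6 controls, 176, 205 and 210 in restrained B6, 257, 203 and 276 in BALB/c controls and 218, 262 and 220 in restrained BALB/c. The groups overlapped except that restrained BALB/c lay above restrained B6, and neither strain comparison passed the test for Zfp365 (adjusted p = 0.752 in controls and 0.356 after restraint, limma). Zfp706, a small protein with a single finger, averaged 146 TPM. Zfp207, a microtubule-binding protein that loads Bub3 onto kinetochores, averaged 68.2 TPM. Zfp445, a KRAB protein that keeps imprinted regions methylated, averaged 67.4 TPM and ranged from 55.5 to 77.8 TPM over the libraries. Zfp106, an RNA-binding protein needed for motor neuron and muscle maintenance, averaged 60.2 TPM. Zfp523, an activator closely related to Zfp143, averaged 58.6 TPM, Zfp637 51.2 TPM and Zfp771 49.0 TPM. Zfp771 varied most of these 8, from 28.1 to 89.2 TPM with both extremes in restrained B6 mice. None of the 8 passed the test in any comparison.

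Variation over the 12 libraries differed widely between members. The coefficient of variation had a median of 14.7%, and was lowest in Zfp574 (5.67%), Zfp131 (5.99%) and Zfp358 (6.28%). It was highest in Zfp940 (53.8%), Zfp969 (51.9%), Zfp536 (44.0%), Zfp968 (43.5%) and Zfp738 (42.8%). Of these 5, Zfp940, Zfp536 and Zfp738 were called between the strains, while Zfp968 and Zfp969 are near-identical copies of each other.

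The libraries were not alike in makeup, and this bears on what follows. Mitochondrial transcripts took 17.4 to 23.9% of the total, and the 18S ribosomal RNA gene Rn18s took 3.97% in restrained BALB/c animal 12 against 0.0307 to 0.169% in the other libraries. That library also had the lowest sum and the lowest median (8.49 TPM) of the members. Markers of several cell types moved with strain, those of myelin and striatum furthest. The summed level of 10 oligodendrocyte markers was 2598 to 9961 TPM in B6 controls, 2815 to 8072 in restrained B6, 491 to 3168 in BALB/c controls and 556 to 1493 in restrained BALB/c, and 10 of 10 were called lower in BALB/c over both treatments. The summed level of 10 markers of striatal medium spiny neurons was 272 to 3038, 1068 to 2493, 172 to 456 and 183 to 236 TPM in the same order, with 9 of 10 called lower. Of 10 excitatory neuron markers, which define the cortical tissue named in the labels, 3 were called higher in BALB/c and none lower, with sums of 1271 to 2618 TPM in B6 and 1739 to 2408 TPM in BALB/c. Other lists moved too. Of 8 astrocyte markers 8 were lower in BALB/c and 2 of them called, with sums of 842 to 1004 TPM in B6 and 630 to 867 TPM in BALB/c. Of 8 microglia markers 3 were called lower, of 8 interneuron markers 3 lower and 1 higher, of 5 choroid plexus markers tested 3 lower, and of 8 endothelial and pericyte markers none. Of the choroid plexus markers, Folr1 and Otx2 were at 0 in at least 1 library. The part of these markers in the strain differences of the members was not tested.

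Strain differences were sought first in the control mice. Of the 208 members, 6 were called (2.88%, adjusted p under 0.05 in limma over all genes tested), beside 4.73% of all 16423 genes. Higher in BALB/c were 2 members, Zfp940 and Zfp983 (0.962%, beside 1.36% of all genes called higher), and 4 were lower, Zfp970, Zfp40, Zfp87 and Zfp965 (1.92%, beside 3.37% called lower). All 6 have a KRAB box, which is 6.38% of the 94 KRAB members and 0% of the 112 without one, beside 4.73% of all genes. The difference between these shares was not tested. Among the 198 members with a mean of 5 TPM or more in both strains, which leave out Zfp983, 5 were called (2.53%, beside 4.73% of all genes). Of these 5, 1 was higher (0.505%) and 4 lower (2.02%). Over the members the median difference was -0.12 on the log2(TPM + 1) scale, beside -0.10 over all genes. With median-of-ratios scaling in place of the deposited TPM, the medians were -0.0030 and 0.0094. That scaling called 7 members, 5 higher and 2 lower, of which 4 (Zfp940, Zfp983, Zfp970 and Zfp40) were among the 6. Over all genes the calls went from 224 higher and 553 lower to 343 higher and 389 lower with that scaling. At the deposited scaling, the count of members rose from 6 to 13 without B6 control animal 9. It was 3 without BALB/c control animal 5 or 9 and 4 without B6 control animal 3. Over all genes the count moved too, from 777 to 1378 without B6 control animal 9. It was 497 and 590 without BALB/c control animal 5 and 9, and 505 without B6 control animal 3. Without B6 control animal 2, the library with the highest oligodendrocyte and striatal sums, 5 members were called, beside 495 of all genes. Of the 5 members, 4 were among the 6, Zfp40 and Zfp965 no longer passed, and Zfp738 did.

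After restraint, 11 members (5.29%) were called, beside 7.70% of all genes. Zfp940 and Zfp983 were again higher in BALB/c (0.962%, beside 2.37% of all genes called higher). A further 9, Zfp970, Zfp738, Zfp40, Zfp930, Zfp420, Zfp68, Zfp275, Zfp664 and Zfp965, were lower (4.33%, beside 5.33% called lower). Among the 198 members with a mean of 5 TPM or more in both strains, 9 were called (4.55%, beside 7.70% of all genes). Of these 9, 1 was higher (0.505%) and 8 lower (4.04%). The median difference was -0.09 over the members and -0.06 over all genes. These medians were 0.0013 and 0.018 without restrained BALB/c animal 12, and the members above 0 went from 78 to 106 of 208. With median-of-ratios scaling the medians were -0.033 and 0. That scaling gave 10 member calls, 4 higher and 6 lower, 8 of them among the 11. Over all genes the calls went from 389 higher and 875 lower to 642 higher and 749 lower. The count of 11 depended on single libraries. It was 2 without restrained BALB/c animal 12 or restrained B6 animal 12, and 4 without restrained B6 animal 13 or restrained BALB/c animal 13. It was 5 without restrained B6 animal 14 or restrained BALB/c animal 15. Without B6 control animal 3 or BALB/c control animal 10 it was 6, and without BALB/c control animal 5 it was 7. In each of these settings fewer of all genes were also called than the 1264 with all libraries. The lowest all-gene counts were 606 without restrained BALB/c animal 12 and 539 without restrained B6 animal 12. Zfp940 and Zfp970 were called in each of the 23 settings tried.

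**Figure D1:**
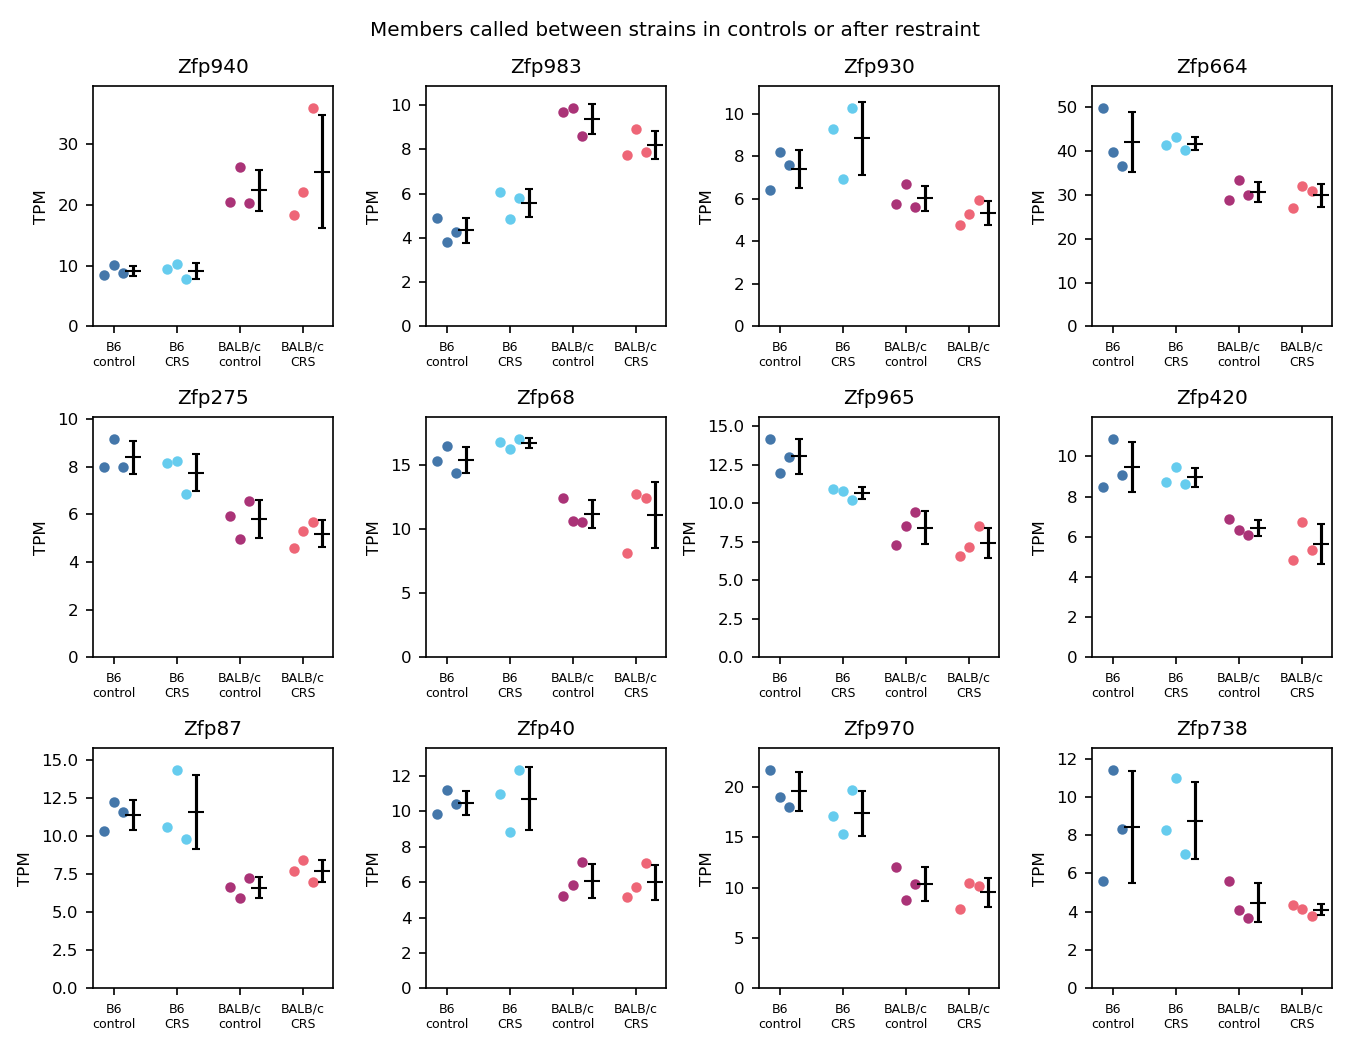
TPM (vertical axes, linear, from 0) of the 12 members called between strains in controls or after restraint, with 1 point per library for the 4 groups; black marks are the group mean and SD (n = 3). Zfp940 and Zfp983 lie higher in BALB/c and the other 10 members lower, with Zfp738 and Zfp930 overlapping between strains in the controls.

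Zfp940 had the largest strain difference of the family. It encodes a KRAB protein with 10 fingers and lies at chr7:29833620-29853669, minus strand, in the annotation, where it overlaps Gm26554 on the opposite strand. Libraries read 8.51, 10.1 and 8.70 TPM in B6 controls and 9.47, 10.2 and 7.74 in restrained B6, against 20.5, 26.3 and 20.3 in BALB/c controls and 18.3, 22.1 and 36.0 in restrained BALB/c. The lowest BALB/c library was above the highest B6 library. The means were 9.11 ± 0.89 and 22.4 ± 3.40 TPM in the controls (SD, n = 3 each), a ratio of 2.45, and the ratio after restraint was 2.79. On the log2(TPM + 1) scale the difference was 1.20 ± 0.21 (SE) in controls (adjusted p = 0.00514) and 1.34 ± 0.21 after restraint (adjusted p = 0.00243).

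Zfp983, a KRAB protein with 10 fingers at chr17:21650624-21664966, was the other member higher in BALB/c under both treatments. Libraries read 4.91, 3.82 and 4.26 TPM in B6 controls, 6.06, 4.85 and 5.81 in restrained B6, 9.67, 9.87 and 8.60 in BALB/c controls and 7.75, 8.94 and 7.88 in restrained BALB/c. The strains did not overlap. Its mean was 4.95 TPM in B6 and 8.79 TPM in BALB/c, so it is a member only through its BALB/c level. The difference was 0.96 ± 0.13 in controls (adjusted p = 0.000824) and 0.49 ± 0.13 after restraint (adjusted p = 0.0446). The gap between these values, the interaction, was -0.48 ± 0.19 and did not pass (unadjusted p = 0.0249, adjusted p = 1). Gm10509 shares 18.6% of the Zfp983 transcript at 95% identity or more, and its own difference in controls was -0.23 ± 0.19.

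Zfp970 was lower in BALB/c under both treatments. This KRAB gene with 14 fingers stands at chr2:177464733-177478129 on the plus strand. Libraries read 21.7, 19 and 18 TPM in B6 controls, 17.0, 15.3 and 19.7 in restrained B6, 12.0, 8.71 and 10.3 in BALB/c controls and 7.90, 10.5 and 10.2 in restrained BALB/c. Every BALB/c library was below every B6 library. The difference was -0.86 ± 0.15 in controls (adjusted p = 0.00556) and -0.81 ± 0.15 after restraint (adjusted p = 0.00811).

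Zfp40, with 16 fingers and a KRAB box at chr17:23173869-23193252, read 9.84, 11.2 and 10.4 TPM in B6 controls and 5.21, 5.85 and 7.11 in BALB/c controls. After restraint it read 11, 8.84 and 12.3 TPM in B6 and 5.16, 5.75 and 7.05 in BALB/c. The strains were apart under both treatments, with differences of -0.71 ± 0.16 (adjusted p = 0.0227) and -0.74 ± 0.16 (adjusted p = 0.0148). Zfp87, a KRAB gene with 15 fingers at chr13:67515781-67526177, read 10.3, 12.3 and 11.6 TPM in B6 controls and 6.65, 5.94 and 7.29 in BALB/c controls, a difference of -0.70 ± 0.15 (adjusted p = 0.0174). Its libraries were also apart after restraint (-0.52 ± 0.15), where the adjusted p was 0.0537. Zfp965 read 14.2, 12.0 and 13.0 TPM against 7.29, 8.56 and 9.45 in controls, and its differences were -0.58 ± 0.13 (adjusted p = 0.0247) and -0.48 ± 0.13 (adjusted p = 0.0464). At 95% identity or more its transcript is matched over 100% of its length by Gm14327, 99.8% by Gm14288 and 95.4% by Gm14440, so reads may have been shared among the 4 genes. In controls Gm14327 differed by -0.50 ± 0.18, Gm14288 by -2.11 ± 0.78 and Gm14440 by -0.36 ± 0.14, none of which passed (adjusted p = 0.149, 0.161 and 0.179). All 3 copies were called lower in the averaged contrast (adjusted p = 0.00992, 0.0428 and 0.0193). Gm14288 was at 0 in 2 of the 3 BALB/c control libraries.

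A further 6 members were called after restraint and not in controls. Zfp738, a KRAB gene with 20 fingers at chr13:67658685-67687071, read 5.60, 11.4 and 8.30 TPM in B6 controls and 5.61, 4.10 and 3.67 in BALB/c controls, so that the strains overlapped. After restraint it read 8.26, 11 and 7.04 TPM in B6 and 4.35, 4.15 and 3.80 in BALB/c, which were apart. Its differences were -0.76 ± 0.23 (adjusted p = 0.0864) and -0.92 ± 0.23 (adjusted p = 0.031), and its BALB/c mean of 4.28 TPM is under the threshold. Zfp930, a KRAB gene with 12 fingers, had a difference of -0.26 ± 0.16 in controls (adjusted p = 0.422) and -0.63 ± 0.16 after restraint (adjusted p = 0.0316). That contrast between treatments is the interaction, which no member passed.

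After restraint, 8 of 94 KRAB members (8.51%) and 3 of 112 without a KRAB box (2.68%) were called, beside 7.70% of all genes. The difference between these shares was not tested. The 3 in which the KRAB pattern was not found were Zfp664, Zfp420 and Zfp275. Zfp664, with 9 fingers, was the most abundant called member. It read 49.9, 39.7 and 36.6 TPM in B6 controls, 41.5, 43.2 and 40.2 in restrained B6, 28.9, 33.3 and 30.0 in BALB/c controls and 26.9, 32.0 and 30.8 in restrained BALB/c. The strains did not overlap, and the difference was -0.43 ± 0.12 in controls (adjusted p = 0.0756) and -0.47 ± 0.12 after restraint (adjusted p = 0.0408). Zfp420, with 19 fingers, differed by -0.49 ± 0.14 and -0.59 ± 0.14, and the X-linked Zfp275, with 11 fingers, by -0.47 ± 0.14 and -0.50 ± 0.14. The KRAB gene Zfp68 differed by -0.43 ± 0.15 and -0.57 ± 0.15. For these 3 the strains were apart under both treatments, and only the comparison after restraint passed (adjusted p = 0.0247, 0.0473 and 0.0421 in this order).

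The strain differences in controls and after restraint come from separate mice. Their signs were equal for 159 of 208 members (76.4%), beside 75.4% of all genes. Of 41 members with an unadjusted p under 0.05 in controls (19.7%, beside 18.7% of all genes), 37 had the same sign after restraint (90.2%, beside 94.9% of all genes with such a p). The correlation of the 2 differences over the members was 0.74, beside 0.83 over all genes, and is a description over genes that share libraries within each axis. A total of 5 members were called under both treatments (2.40%, beside 3.48% of all genes) and 12 under either (5.77%, beside 8.94%). In controls the 3 libraries of the strains did not overlap for 47 members (22.6%, beside 22.9% of all genes), and after restraint for 51 members (24.5%, beside 29.3%).

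**Figure D2:**
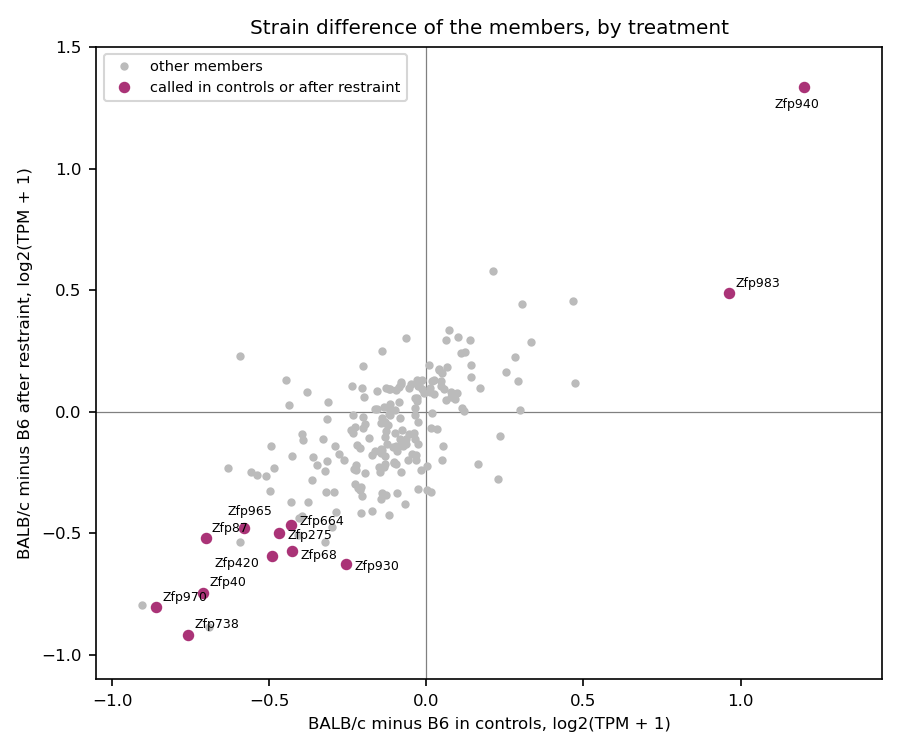
Difference between strains (BALB/c minus B6, log2(TPM + 1)) of each of the 208 members in controls (horizontal axis) and after restraint (vertical axis), with the 12 called members in purple. Zfp940 stands apart at the upper right (1.20 and 1.34), and the called members that were lower in BALB/c lie together at the lower left.

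Averaged over both treatments, with 6 libraries per strain, 30 members (14.4%) were called, beside 18.4% of all genes. Of these, 3 were higher in BALB/c (1.44%, beside 4.05% of all genes called higher) and 27 lower (13.0%, beside 14.3% called lower). This split depended on the scaling. With median-of-ratios scaling 32 members were called, 11 higher and 21 lower, 24 of them among the 30. Over all genes the calls went from 665 higher and 2356 lower to 1478 higher and 1701 lower with that scaling. The median over the members was -0.11, beside -0.08 over all genes, and with that scaling the medians were -0.017 and 0.0056. Among the 198 members with a mean of 5 TPM or more in both strains, 28 were called (14.1%), 2 higher (1.01%) and 26 lower (13.1%). Without restrained B6 animal 12 the count over all members was 19, and that over all genes went from 3021 to 2151. A total of 18 members were called in each of the 22 settings tried for this contrast. These were Zfp940 and Zfp983, higher in BALB/c, and Zfp970, Zfp738, Zfp536, Zfp40, Zfp87, Zfp157, Zfp420, Zfp965, Zfp68, Zfp275, Zfp110, Zfp664, Zfp930, Zfp790, Zfp467 and Zfp830, lower. The other 12, Zfp868, Zfp866, Zfp946, Zfp326, Zfp948, Zfp219, Zfp46, Zfp740, Zfp276, Zfp386, Zfp950 and Zfp287, each lost the call in at least 1 setting.

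Differences within the family were mostly small. The median absolute difference in the averaged contrast was 0.15 over the members and 0.18 over all genes, 197 of 208 members differed by less than 0.5, and 1 member, Zfp940, by 1 or more. Of the 94 KRAB members 18 were called (19.1%, beside 18.4% of all genes), 3 higher (3.19%, beside 4.05%) and 15 lower (16.0%, beside 14.3%), so that the KRAB share was near that of all genes. Of the 112 without a KRAB box 12 were called, all lower (10.7%, beside 18.4% of all genes called and 14.3% called lower). The difference between these shares was not tested. By number of fingers, 19 of 106 members with 10 or more fingers (17.9%) and 11 of 100 with fewer (11%) were called, and by level 5 of the 40 members at 20 TPM or more (12.5%), each beside 18.4% of all genes.

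**Figure D3:**
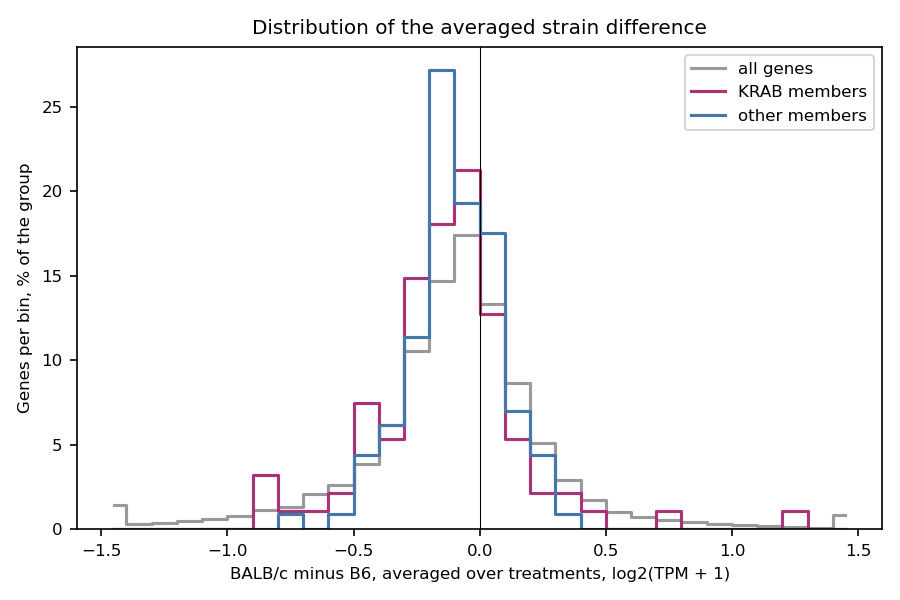
Share of genes (vertical axis, % of each group) by difference between strains averaged over treatments (horizontal axis, log2(TPM + 1), bins of 0.1, with values beyond the ends placed in the end bins), for all 16423 genes, the 94 KRAB members and the 114 other members, which include the 2 members for which no coding sequence was searched. Each of the 3 curves is highest between -0.2 and 0, and no member lies under -0.9.

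Zfp868, the third member called higher, is a KRAB gene with 9 fingers at chr8:69610857-69625548. It read 10.7, 10.8 and 8.93 TPM in B6 controls, 8.65, 10.4 and 8.56 in restrained B6, 14.1, 13.0 and 11.2 in BALB/c controls and 11.1, 12.2 and 15.6 in restrained BALB/c. The lowest BALB/c library, at 11.1 TPM, was just above the highest B6 library, and the averaged difference was 0.37 ± 0.11 (adjusted p = 0.0291). Zfp157 and Zfp790, both KRAB genes, were lower by -0.56 ± 0.13 (adjusted p = 0.0125) and -0.42 ± 0.10 (adjusted p = 0.0159). Zfp467, without a KRAB box, averaged 17.6 ± 1.81 TPM in B6 and 13.1 ± 0.969 TPM in BALB/c (SD, n = 6), with no overlap (-0.40 ± 0.08, adjusted p = 0.00685). Zfp830, with a single finger, averaged 9.51 and 7.08 TPM without overlap (-0.39 ± 0.10, adjusted p = 0.0155).

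Members stand in clusters, and 101 of them lay in 18 runs of at least 3 members with gaps of at most 1 Mb. In the averaged contrast, 16 of the 101 members in such runs were called, in 7 of the 18 runs. This stands beside 30 of all 208 members (14.4%) and 18.4% of all genes. Of 123 members with another Zfp gene within 250 kb, 17 were called (13.8%), and of 84 without, 13 (15.5%), both beside 18.4% of all genes. At the deposited scaling, called neighbours differed in direction in 3 of these runs. In the run of 11 members at chr7:29783998-30169750, Zfp790 and Zfp420 were lower in BALB/c, and Zfp940, which stands between them, was higher. Zfp382 in the same run had a difference of 0.46 ± 0.24 (adjusted p = 0.207), with libraries from 5.80 to 16.8 TPM in B6 and 8.21 to 17.2 TPM in BALB/c that overlapped. In the run of 9 at chr17:21008903-23599487, all with a KRAB box, Zfp948, Zfp946 and Zfp40 were lower and Zfp983 higher. At chr8:69209038-69791178, Zfp930 (-0.44 ± 0.11, adjusted p = 0.017) and Zfp866 (-0.36 ± 0.09, adjusted p = 0.019) were lower, and Zfp868, between them, was higher. The call of Zfp868 was lost in some settings, among them without restrained B6 animal 12. At chr13:67515781-67729173, Zfp87 and Zfp738 were lower, and Zfp65, next to them, had a value of 0.30 ± 0.11 (adjusted p = 0.0793). With median-of-ratios scaling Zfp65 was called. In the run of 7 at chr2:175372436-178078476, each value was under 0, from -0.85 to -0.16, and Zfp965 and Zfp970 passed the test.

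**Figure D4:**
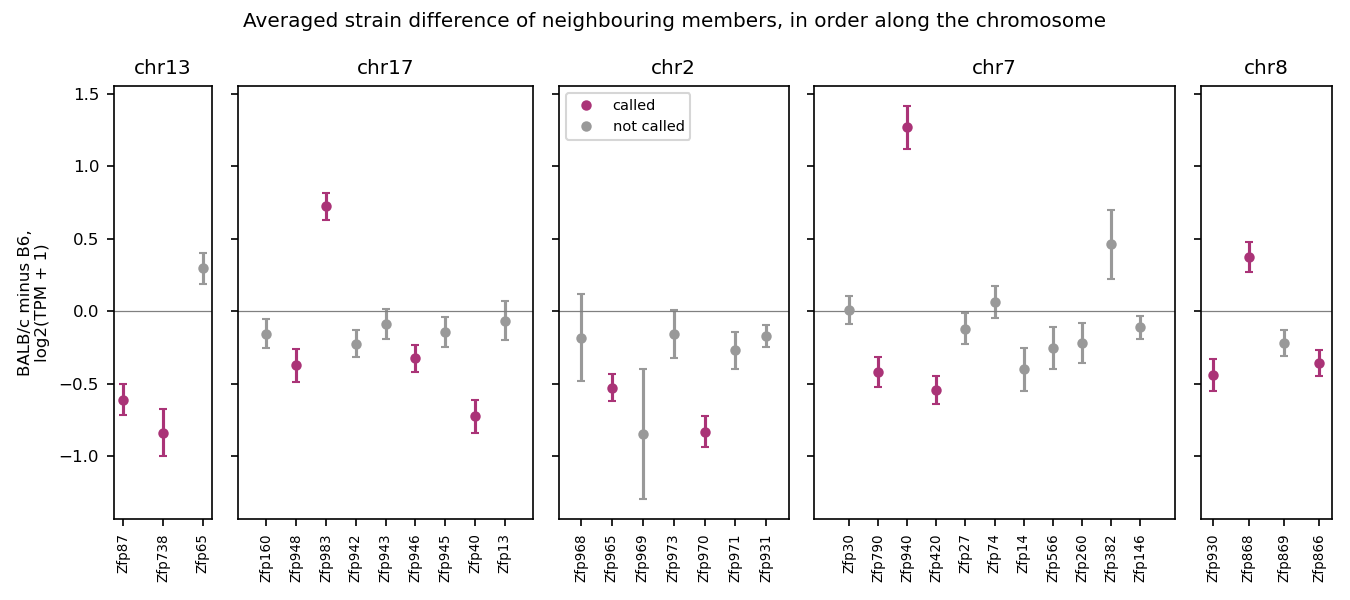
Averaged difference between strains (vertical axis, BALB/c minus B6, log2(TPM + 1)) of the members in the 5 runs with at least 2 calls, in order along each chromosome; bars are SE and purple points were called at an adjusted p under 0.05. Zfp940, Zfp983 and Zfp868 lie above 0 among neighbours that mostly lie below 0.

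The chromosome 2 run holds copies that the counting cannot keep apart with certainty. Zfp968, Zfp969 and Zfp973 match each other at 95% identity or more over most of their length, and also match Zfp966 and Zfp967, which are not members. Zfp969 read 5.84, 4.52 and 9.43 TPM in B6 controls and 9.08, 0 and 4.94 in BALB/c controls, and Zfp968 read 7.61, 7.43 and 6.18 against 1.43, 8.40 and 5.66. The BALB/c control library with Zfp969 at 0 was the one with the highest Zfp968, and the library with the highest Zfp969 had the lowest Zfp968. Neither gene was called. When each copy was replaced by the sum over its near-identical set, all 3 were called lower after restraint and in the averaged contrast, which raised the counts from 11 to 14 and from 30 to 33, but these are 3 readings of much the same sum. For 9 members in all, a gene matched at 95% identity or more over at least 80% of the shorter transcript. The match covered only 2.3% of Zfp799, 15.4% of Zfp934, 18.6% of Zfp983, 27.3% of Zfp865 and 44.7% of Zfp617. A gene on the opposite strand overlapped 76 members, and the sources used here do not state whether strand entered the quantification.

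The partners of the KRAB proteins were compared in the same fit, with a list of 40 names of which 38 were tested. In controls 1 was called (2.63%, beside 4.73% of all genes), after restraint 1 (2.63%, beside 7.70%), and in the averaged contrast 3 (7.89%, beside 18.4% of all genes), all lower in BALB/c. Trim28, the protein that the KRAB box binds, averaged 84.3 TPM and ranged from 71.7 to 96.7 TPM, with an averaged strain difference of 0.09 ± 0.09 (adjusted p = 0.504). Setdb1, its histone methyltransferase, averaged 13.8 TPM with -0.12 ± 0.07 (adjusted p = 0.278). Hdac1, a histone deacetylase, read 23.3, 21.1 and 20.4 TPM in B6 controls and 16.2, 15.0 and 16.1 in BALB/c controls, without overlap, and was lower in controls (-0.43 ± 0.11, adjusted p = 0.043). Mbd2, a methyl-CpG binding protein of the NuRD complex, read 46.8, 47.7 and 44.9 TPM in restrained B6 and 29.3, 26.3 and 24.0 in restrained BALB/c. It was called lower in restrained BALB/c than in restrained B6 (-0.79 ± 0.12, adjusted p = 0.00248). Its strains were also apart in controls, where it was not called (-0.37 ± 0.12, adjusted p = 0.128). Cbx3, a heterochromatin protein, was the third gene called in the averaged contrast (-0.24 ± 0.07, adjusted p = 0.0384).

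Members with a known role in the brain or in gene silencing were taken from a list of 35 names, of which 26 are members. In the averaged contrast 4 of the 26 were called, Zfp536, Zfp110, Zfp219 and Zfp326, all lower in BALB/c (15.4%, beside 14.3% of all genes called lower and 18.4% called). Zfp536, which holds back neuronal differentiation, read 14.6, 12.0 and 7.62 TPM in B6 controls, 11, 14.5 and 20.4 in restrained B6, 5.60, 6.24 and 7.69 in BALB/c controls and 5.20, 8.36 and 9.94 in restrained BALB/c. The strains overlapped in controls and were apart after restraint, with an averaged difference of -0.79 ± 0.19 (adjusted p = 0.0154). Zfp110, which binds the p75 neurotrophin receptor, averaged 7.36 ± 1.00 TPM in B6 and 5.06 ± 0.391 TPM in BALB/c, with no overlap (-0.46 ± 0.10, adjusted p = 0.00965). Zfp219, a partner of Sox9 in cartilage, averaged 26.1 and 18.9 TPM (-0.43 ± 0.13, adjusted p = 0.0356), a call that was lost with median-of-ratios scaling. Zfp326, a subunit of the DBIRD complex that couples splicing to elongation, averaged 21.6 and 17.1 TPM (-0.32 ± 0.09, adjusted p = 0.0309).

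The other members of known role did not pass the averaged test between strains at the deposited scaling, and their levels are given. Zfp335 was called higher in BALB/c with median-of-ratios scaling, and Zfp462 was called lower without B6 control animal 9. Zfp57, which with Zfp445 keeps imprints, ranged from 6.60 to 14.6 TPM. Zfp809, which silences retroviral proviruses, averaged 10.0 TPM, and Zfp932, a KRAB repressor of endogenous retroviruses, 26.5 TPM. Zfp638, an RNA-binding protein that recruits silencing to unintegrated retroviral DNA, averaged 40.9 TPM. Zfp24, needed for myelination by oligodendrocytes, averaged 16.7 TPM and ranged from 12.3 to 19.3 TPM. Zfp423, a regulator of cerebellar development, ranged from 6.54 to 15.7 TPM. Zfp335, mutated in an inherited microcephaly, averaged 10.2 TPM, Zfp462, a developmental regulator, 7.76 TPM, Zfp292, linked to intellectual disability, 7.17 TPM, and Zfp609, which acts with the cohesin loader Nipbl in cortical neurons, 10.0 TPM. Zfp91, an E3 ubiquitin ligase, averaged 39.0 TPM, Zfp148 29.3 TPM, Zfp131 27.1 TPM, Zfp346, which binds double-stranded RNA, 22.8 TPM, Zfp281 15.2 TPM and Zfp143, which binds promoters at chromatin loops, 5.77 TPM. Zfp131 was among the steadiest, from 23.4 to 29.1 TPM. Zfp266 averaged 11 TPM and Zfp704 8.82 TPM.

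Restraint was compared with handling within each strain. None of the 208 members was called in B6, in BALB/c, averaged over the strains, or for the interaction between strain and restraint, under the deposited scaling and each alternative tried. Of all genes, 0% were called in B6, 0.00609% in BALB/c, 0.00609% averaged and 0% for the interaction (limma). At an unadjusted p under 0.05 there were 5 members in B6 (2.40%, beside 4.82% of all genes), 3 in BALB/c (1.44%, beside 3.03%), 8 averaged (3.85%, beside 5.17%) and 3 for the interaction (1.44%, beside 2.70%). Without restrained BALB/c animal 12, the library with the high Rn18s, there were 17 members in BALB/c (8.17%, beside 7.24% of all genes), 20 averaged (9.62%, beside 8.53%) and 11 for the interaction (5.29%, beside 4.29%), and the median over the members in BALB/c was 0.13, beside 0.12 over all genes. The medians over the members were 0.01 in B6, 0.04 in BALB/c and 0.03 averaged, beside 0.00, 0.05 and 0.02 over all genes, and with median-of-ratios scaling those in BALB/c and averaged turned to -0.014 and -0.0029. The median SE of a member was 0.15 in a single strain and 0.11 averaged. The smallest adjusted p of a member was 0.946. Cell type markers also moved with restraint, though none of those given here was called. In B6, 10 of 10 striatal markers were higher in restrained mice (median 1.19) and 10 of 10 excitatory neuron markers lower (median -0.39). In BALB/c, 9 of 10 striatal markers were lower (median -0.36), and 6 of 10 excitatory neuron markers higher (median 0.03). Of 10 oligodendrocyte markers, 10 were lower in restrained B6 (median -0.16) and 10 in restrained BALB/c (median -0.30). Of 8 microglia markers, 8 were lower in B6 (median -0.09) and 7 in BALB/c (median -0.08). Of 8 astrocyte markers 5 were higher in B6 and 6 in BALB/c, and of 8 interneuron markers 4 and 7. Of 8 endothelial and pericyte markers 7 and 5 were higher in the same order, and of 5 choroid plexus markers 4 and 3. The part of these markers in the restraint differences of the members was not tested.

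Zfp414, a gene with 2 fingers and no KRAB box at chr17:33629090-33631779, had the lowest p for restraint. It read 28.5, 27.5 and 34.1 TPM in B6 controls and 38.1, 37.0 and 47.3 in restrained B6, and 39.6, 33.3 and 37.8 in BALB/c controls and 44.0, 43.2 and 45.8 in restrained BALB/c. Restrained mice were above controls without overlap in both strains. Its difference was 0.43 ± 0.12 in B6 (unadjusted p = 0.00446, adjusted p = 1), 0.26 ± 0.12 in BALB/c (unadjusted p = 0.0532, adjusted p = 1) and 0.35 ± 0.09 averaged (unadjusted p = 0.00181, adjusted p = 0.946), so it did not pass the test. Zfp1 was the only other member with no overlap in both strains and the same direction, at 17.3, 15.7 and 17.1 TPM against 18.5, 17.3 and 18.1 in B6 and 14.8, 15.8 and 14.8 against 17.2, 17.1 and 17.9 in BALB/c. These 2 are 0.962% of the members, beside 0.578% of all genes. No member was without overlap in opposite directions, beside 0.268% of all genes. Within a strain the control and restrained libraries did not overlap for 21 members in B6 (10.1%, beside 8.33% of all genes) and 16 in BALB/c (7.69%, beside 7.39%). Zfp414 and Zfp1 were singled out after their values were seen.

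The other members of lowest p were these, none of which passed. In B6 they were Zfp511 (0.36 ± 0.13), Zfp719 (-0.37 ± 0.14) and Zfp638 (-0.25 ± 0.10). In BALB/c they were Zfp629 (0.49 ± 0.17), Zfp560 (0.51 ± 0.18), Zfp825 (-0.40 ± 0.20) and Zfp933 (-0.34 ± 0.18). Zfp560 read 9.54, 8.68 and 8.84 TPM in BALB/c controls and 12.0, 14.2 and 13.8 in restrained BALB/c, while its B6 libraries read 10.9, 10.1 and 17.9 against 12.7, 12.1 and 14.3 TPM. The BALB/c groups were thus apart and the B6 groups overlapped, and the interaction for Zfp560 was 0.47 ± 0.25 (unadjusted p = 0.088, adjusted p = 1). Averaged over strains, Zfp28 (0.38 ± 0.14), Zfp965 (-0.22 ± 0.09) and Zfp825 (-0.29 ± 0.14) followed Zfp414. For the interaction, coded as the restraint effect in BALB/c minus that in B6, the lowest p were those of Zfp983 (-0.48 ± 0.19), Zfp410 (0.58 ± 0.23), Zfp719 (0.46 ± 0.19) and Zfp931 (-0.29 ± 0.15). Zfp410, an activator of the chromatin remodeller gene Chd4, read 19.6, 20.5 and 19.8 TPM in B6 controls and 14.5, 17.0 and 18 in restrained B6, against 15.5, 13.5 and 14.2 in BALB/c controls and 15.8, 15.1 and 24.7 in restrained BALB/c.

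**Figure D5:**
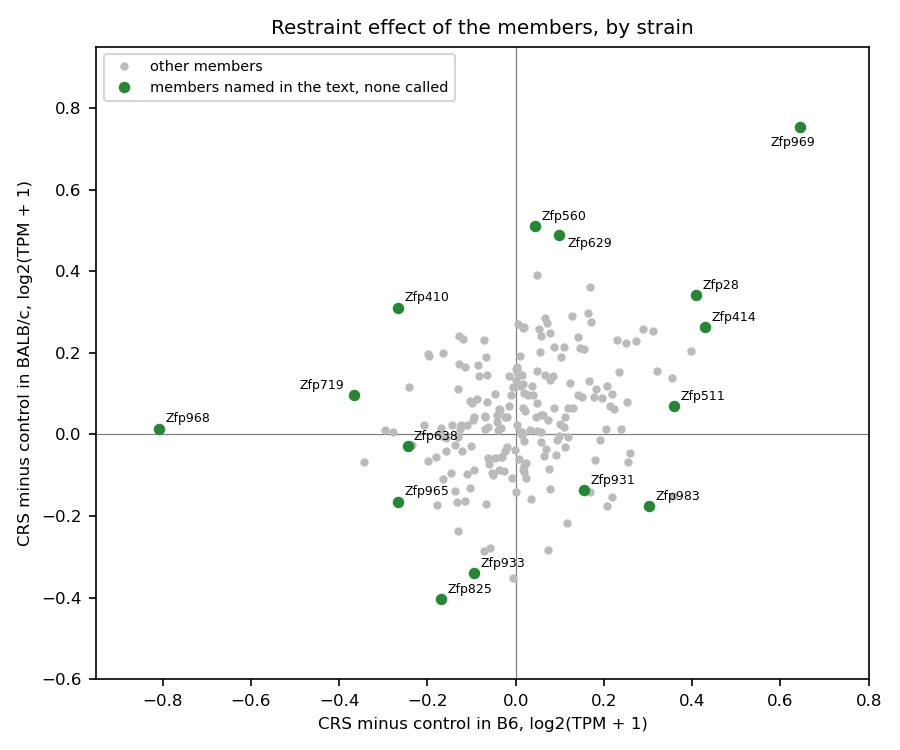
Difference between restrained and control mice (log2(TPM + 1)) of each of the 208 members in B6 (horizontal axis) and BALB/c (vertical axis), with members of lowest p and the near-identical pair Zfp968 and Zfp969 in green. No member was called and the largest values, of Zfp968 in B6 (-0.81) and of Zfp969 in both strains (0.64 and 0.75), belong to copies that reads cannot keep apart with certainty.

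The restraint effects of the strains come from separate mice. Signs were equal for 128 of 208 members (61.5%), beside 55.8% of all genes, and the correlation over the members was 0.30, beside 0.11 over all genes, as a description over genes. Zfp969, which reads cannot keep apart from its copies with certainty, had the highest value in both strains (0.64 and 0.75). The correlation without Zfp969 was not computed.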

How the data were processed

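RNA of 12 medial prefrontal cortex punches was sequenced from stranded poly(A) libraries, per the labels' protocols. The authors deposited TPM values as a single table of 147902 rows, each named by gene. The submitters' processing notes name cutadapt 2.9, Salmon and the build GRCm38, with no Salmon version. The annotation release and the use of strand are not given in the sources used here. Each column sums to the same total, so depth is unknown and precision rests on the spread between mice. GRCm38 is the C57BL/6J genome, and its effect on BALB/c values was not tested.

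Rows were summed per gene name. Genes with 1 TPM or more in at least 3 libraries (16423) were fitted on log2(TPM + 1) with limma 3.58.1 in R 4.3.3, using 4 group means (8 residual degrees of freedom) and eBayes with a trend. The call threshold was an adjusted p of 0.05 (Benjamini-Hochberg, over all genes tested). Differences on this scale understate changes of low genes. A count test stood first in the plan and was not possible with TPM. The script was tested on simulated data.

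Genes were named by rule. The rule took the 8 most abundant members, called members whose strains did not overlap (up to 10 in each direction per strain contrast), the 2 members of lowest p in each direction per restraint contrast, members of a list of known roles, corepressors, members at the threshold, and neighbours and copies of named members. Other called members named in the text were chosen after their values were seen. The members and lists were chosen with earlier results of these data known. Fingers and KRAB boxes were found by pattern in GENCODE M21 coding sequences (207 of 208 names matched), in place of the RefSeq proteins first planned, which were not used here. A KRAB box needed 12 of 16 conserved positions. Start regions came from RefSeq.

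Alternatives were other pseudocounts (0.1 and 5), other filters, 2 other scalings, eBayes without trend, a replicate block, only the groups compared, near-identical copies summed, and leaving out each library.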

Additional observations from a re-analysis of the deposited data

How the results depend on the processing

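The direction of each named called member was the same under the deposited scaling and each alternative tried, while the counts moved. The count of members called in controls ranged from 3 to 13 when each library was left out in turn. The count after restraint ranged from 2 to 13, and the averaged count from 19 to 31. Over all genes these counts ranged from 425 to 1378, 539 to 1831 and 1972 to 3787. After restraint, 11 members became 4 with no filter on low values, 5 when only the groups compared were fitted, and 5 with a replicate block. Over all genes the count after restraint went from 1264 to 969 of 30737 with no filter and to 1438 for only the groups compared. The causes were not tested. The replicate block gave 5 members in controls and 22 averaged, and lowered the count of all genes called after restraint from 1264 to 750. Animal numbers shared between strains mark different mice, and deviations of same-numbered libraries correlated at -0.24, -0.03 and -0.04. So few pairs cannot show whether same-numbered mice were handled or processed together. Only the groups compared could not be fitted for the averaged contrasts or the interaction, which use all groups. In each restraint contrast and the interaction, 0 members were called under each alternative. Depth could not be judged from TPM.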

Other observations

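Of the 172 Zfp names under the threshold of 5 TPM, 127 were tested and 10 were at 0 in each library. Of the 127, 6 were called between strains in controls (1 higher and 5 lower in BALB/c, 4.72%, beside 4.73% of all genes), 5 after restraint (1 higher and 4 lower, 3.94%, beside 7.70%) and 19 averaged over treatments (2 higher and 17 lower, 15.0%, beside 18.4% of all genes). No such gene was called for restraint in either strain. Their median averaged strain difference was -0.15, beside -0.11 for the members and -0.08 for all genes. In 13 of the 172 the mean reached 5 TPM in 1 of the strains.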
